A study of Mus musculus with 12 samples.

Results

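The mevalonate pathway from HMG-CoA to squalene was followed through 8 enzymes, Hmgcs1, Mvk, Pmvk, Mvd, Idi1, Fdps, Ggps1 and Fdft1. The genes were taken by name from the annotation of the array, which holds 10 probe sets for them among 35557. All 8 were measured among the 19938 genes tested, with 2 probe sets each for Idi1 and Fdft1. Whole-liver RNA of mice of the 129Sv strain, aged 12 weeks and fasted for 24 h before they were killed, was hybridized to 12 Affymetrix arrays. Controls (SIRT3WT) and SIRT3KO mice, which lack the mitochondrial deacetylase SIRT3, ate a standard diet, or were put at weaning on a Western diet high in fat (42%). Each of the 4 groups holds 3 arrays. How the SIRT3KO allele was made, the sex of the mice and the cholesterol content of the diets are not given in the sources used here. Values are RMA signals on the log2 scale, on which a difference of 1 is a doubling.

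The pathway builds isoprenoids and, from them, cholesterol, and the liver is one of its main sites. Acetyl-CoA units are joined into HMG-CoA, which is reduced to mevalonate, phosphorylated, decarboxylated to an isoprenoid unit and condensed in steps to farnesyl diphosphate. That compound is the branch point: squalene synthase commits it to sterols, and geranylgeranyl diphosphate synthase extends it for protein prenylation. Transcription of many of these genes is raised by SREBP2 when sterols in the endoplasmic reticulum are low and falls when they are plentiful.

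On the high-fat diet, 5 of the 8 enzymes were lower when the genotypes were averaged: Hmgcs1, Pmvk, Mvd, Idi1 and Fdps. Fdps and Idi1 moved most, to about a 3-fold lower signal, with averaged differences of -1.66 (SE 0.114) and -1.60 (SE 0.247). Mvk (-0.16), Ggps1 (0.13) and Fdft1 (-0.09) did not pass the test. No enzyme passed the test between SIRT3KO and control mice on either diet, and none passed for a genotype-dependent response to diet. A gene is called here where the limma test over all 19938 genes, with Benjamini-Hochberg adjustment, gave an adjusted p under 0.05.

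Every comparison of diets carries a limit that the genotype comparisons do not. Whether all arrays were normalized in 1 run is not given in the sources used here. Within a diet, pairs of arrays shared 2 to 31 exactly identical values, and pairs from different diets shared 0 to 1. Moreover, 335 probe sets have no value on any standard-diet array and one on every high-fat array. Diet and normalization run therefore cannot be told apart. Of 1233 genes for olfactory, vomeronasal and taste receptors, which had a median signal of 4.23 against 6.70 for all genes, 11.3% were called between diets in controls and 7.62% in SIRT3KO mice. Their differences shared an offset with an SD of 0.214, the square root of the covariance between the control and SIRT3KO differences. The 8 enzymes had mean signals of 6.90 to 9.94, and whether an offset of that size applies at such levels was not tested. With a variance of that size added, Fdps was the 1 enzyme of the 8 called in SIRT3KO mice and over both genotypes (adjusted p = 0.0461 and 0.0147), and none in controls, where Fdps stood at 0.101. Labels do not say outright that each array is a separate mouse, so p-values measure the spread between these arrays.

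The array medians lay between 6.34 and 6.47. The 8 hepatocyte markers measured, Alb and Apoa1 among them, stood at percentile 98.6 or above of all genes in mean signal. Sirt3, the targeted gene, was at 8.97, 9.04 and 9.13 in standard-diet controls and 8.83, 8.94 and 8.95 in SIRT3KO livers. On the high-fat diet it was at 9.29, 9.14 and 9.13 against 8.92, 8.49 and 8.87. The genotypes did not overlap on either diet, and the differences of -0.14 and -0.42 did not pass the test (limma adjusted p = 0.660 and 1.00). Whether its probes lie in the deleted part is not known, so this does not check the genotype labels. SIRT3KO standard-diet replicate 1 stands apart in acute-phase genes: the mean of 18 such genes, each centred over the arrays, was 1.37 there and -0.32 to 0.25 elsewhere. The count of enzymes called in SIRT3KO mice is given without that array too.

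To show the sequence in front of the enzymes that fell and those that did not, the promoter stretches of 6 of the 8 were searched in the RefSeq promoter table (GRCm38.p6), in which Fdps and Fdft1 have no entry. The 250 bases before the annotated start were read for 4 motifs on both strands: TCACNCCAC, the core of a sterol regulatory element bound by SREBP, CCAAT, the box of NF-Y, which acts with SREBP, CACGTG, an E-box, and GGGCGG, a GC box. Hmgcs1 and Idi1, which fell, are set beside Mvk and Ggps1, which did not pass the test. The stretches lie at chr13:119690101-119690350 (plus strand) for Hmgcs1, chr13:8885356-8885605 (plus) for Idi1, chr5:114444019-114444268 (plus) for Mvk and chr13:14063489-14063738 (minus) for Ggps1. Capitals mark matches of TCACNCCAC and CCAAT on either strand, in the direction of the gene.
Hmgcs1: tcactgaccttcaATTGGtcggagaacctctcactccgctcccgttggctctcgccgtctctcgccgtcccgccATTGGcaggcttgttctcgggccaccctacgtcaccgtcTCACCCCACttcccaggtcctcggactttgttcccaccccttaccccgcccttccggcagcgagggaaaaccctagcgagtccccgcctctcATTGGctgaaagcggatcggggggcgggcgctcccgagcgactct
Idi1: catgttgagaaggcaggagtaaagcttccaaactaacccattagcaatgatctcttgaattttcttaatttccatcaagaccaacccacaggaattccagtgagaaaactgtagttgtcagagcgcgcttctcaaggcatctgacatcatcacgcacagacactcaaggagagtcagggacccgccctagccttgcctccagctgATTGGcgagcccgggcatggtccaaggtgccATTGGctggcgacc
Mvk: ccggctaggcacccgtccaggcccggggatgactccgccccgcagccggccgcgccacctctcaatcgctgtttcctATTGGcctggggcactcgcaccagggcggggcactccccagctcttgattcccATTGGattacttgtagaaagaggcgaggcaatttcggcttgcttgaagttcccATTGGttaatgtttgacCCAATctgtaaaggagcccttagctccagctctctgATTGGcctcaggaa
Ggps1: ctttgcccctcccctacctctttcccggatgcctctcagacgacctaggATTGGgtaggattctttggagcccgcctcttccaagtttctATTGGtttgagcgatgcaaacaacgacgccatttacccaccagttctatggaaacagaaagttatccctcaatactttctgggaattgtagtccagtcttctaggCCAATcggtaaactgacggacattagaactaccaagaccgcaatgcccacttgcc

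Of the 6 genes with an entry, Hmgcs1 alone held TCACNCCAC, as TCACCCCAC 137 bases before the start, where 1.05% of 32851 promoters of the table hold it. The CCAAT box was in at least 1 promoter of each of the 6 genes, and in 33.8% of all promoters. Its copies numbered 3 in Hmgcs1, 2 in Idi1, 2 in Mvd, 5 in Mvk and 3 in Ggps1, so the count did not separate enzymes that fell from those that did not. Pmvk has 2 listed starts, with 1 copy before 1 of them and 0 before the other. The E-box was in 0 of the 6, against 6.02% of all, and the GC box in 4 of the 6, against 32.7%. A match describes letters and not binding, and lack of a match applies to these letters and this window only.

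**Figure D1:**
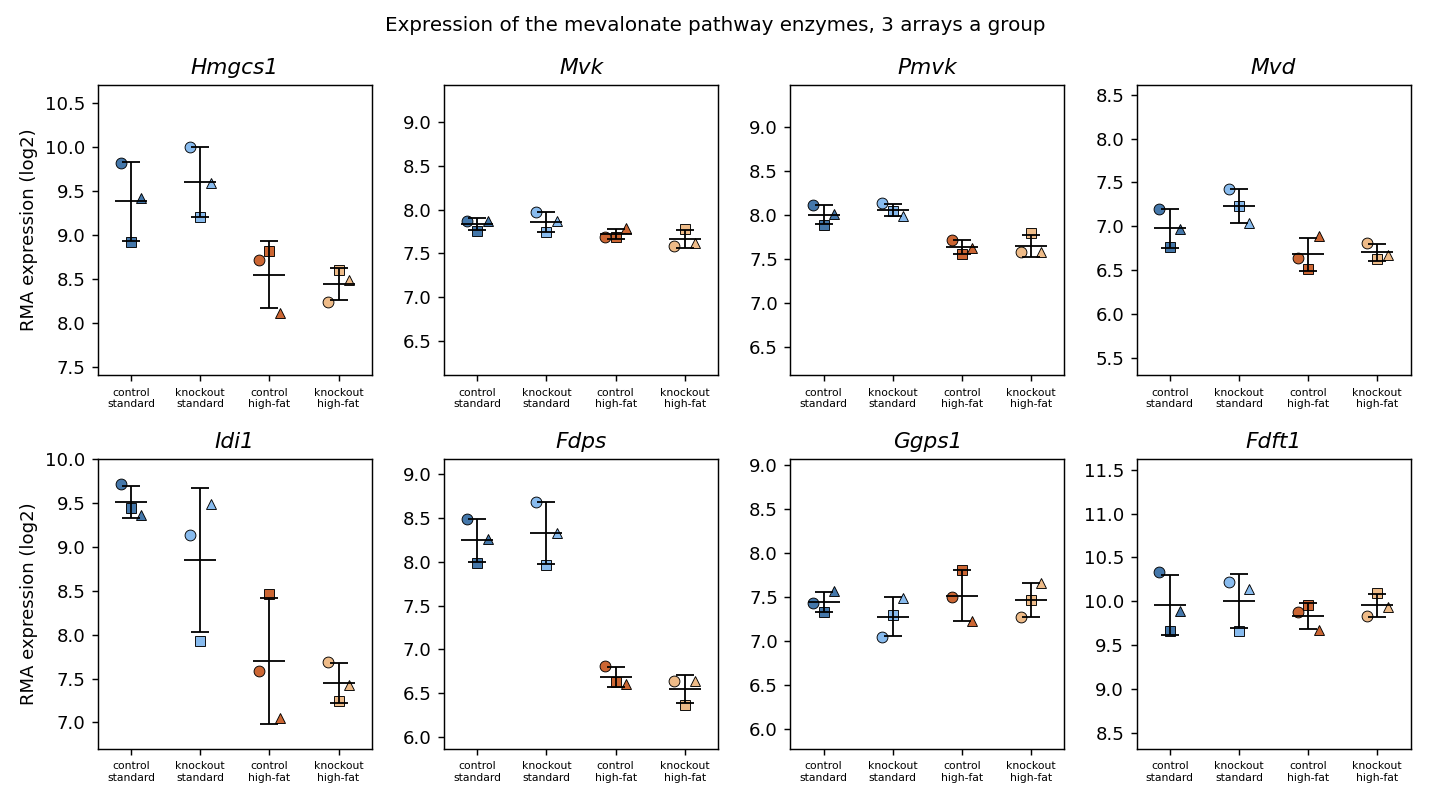
RMA expression (log2, vertical axes with a common span but different origins) of the 8 enzymes in the 4 groups. Points are arrays (circle, square and triangle for replicates 1, 2 and 3), the long bar is the group mean and the error bar 1 SD (n = 3). Fdps sits between 7.97 and 8.67 on the standard diet and between 6.37 and 6.81 on the high-fat diet, and Ggps1 overlaps in all groups.

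Hmgcs1 encodes the cytosolic HMG-CoA synthase, which condenses acetyl-CoA with acetoacetyl-CoA. Its signal was 9.82, 8.92 and 9.42 in standard-diet controls and 10.00, 9.21 and 9.58 in standard-diet SIRT3KO livers. High-fat values were 8.72, 8.81 and 8.11 in controls and 8.24, 8.60 and 8.49 in SIRT3KO livers. The lowest standard-diet array, a control, lay only just above the highest high-fat array, and the diets did not overlap in either genotype. Hmgcs1 was 1.79-fold lower in controls (-0.84, SE 0.233, limma adjusted p = 0.0486) and 2.23-fold lower in SIRT3KO mice (-1.16, SE 0.233, limma adjusted p = 0.0125). The call in controls was marginal. It ended on leaving out control standard-diet replicate 1 (adjusted p = 0.175) or 3 (0.129), or control high-fat replicate 1 (0.0923), 2 (0.0524) or 3 (0.149). The same held for SIRT3KO standard-diet replicate 3 (0.0531) and SIRT3KO high-fat replicates 1 (0.0525), 2 (0.0613) and 3 (0.0611), which enter only the variance. Without the intensity trend it was at 0.0514, with robust moderation at 0.0873, with bright genes alone at 0.0787 and with the 2 control groups alone at 0.0505, all above the threshold of 0.05. In SIRT3KO mice the call held without any single array.

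Mvk, Pmvk and Mvd carry mevalonate through its phosphorylations to the decarboxylation that yields isopentenyl diphosphate. Mvk, mevalonate kinase, stayed within a narrow band of 7.59 to 7.97 over the 12 arrays. Its group means were 7.83 (SD 0.0641, n = 3) and 7.86 (SD 0.114) in standard-diet controls and SIRT3KO livers, and 7.72 (SD 0.0592) and 7.66 (SD 0.102) on the high-fat diet. The differences between diets were -0.11 (95% confidence interval -0.31 to 0.08) in controls and -0.20 (-0.39 to -0.01) in SIRT3KO mice. Neither passed the limma test over all genes (adjusted p = 0.49 and 0.218), and groups overlapped in both genotypes.

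Pmvk, phosphomevalonate kinase, showed a small fall with little spread between arrays. It stood at 8.11, 7.89 and 8.01 in standard-diet controls and 8.14, 8.05 and 7.99 in standard-diet SIRT3KO livers. High-fat values were 7.72, 7.56 and 7.62 in controls and 7.57, 7.80 and 7.59 in SIRT3KO livers, so each standard-diet array exceeded each high-fat array. The difference was -0.37 (SE 0.0944, 1.29-fold) in controls and -0.41 (SE 0.0944, 1.33-fold) in SIRT3KO mice, at limma adjusted p = 0.0343 and 0.0244. In controls the call ended without any 1 of the 6 control arrays, at an adjusted p of 0.126, 0.0537 and 0.101 without standard-diet replicates 1, 2 and 3 and of 0.0703, 0.0961 and 0.0686 without high-fat replicates 1, 2 and 3. In SIRT3KO mice it ended without standard-diet replicates 1 (0.0843) or 2 (0.0650) or high-fat replicates 1 (0.0617) or 3 (0.0845), and with the SIRT3KO groups alone (0.0820). Averaged over genotypes (-0.39, SE 0.0667) it held without any single array.

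For Mvd, the decarboxylase that ends the mevalonate section, the standard-diet values were 7.20, 6.76 and 6.97 in controls and 7.43, 7.23 and 7.04 in SIRT3KO livers. High-fat values were 6.64, 6.51 and 6.89 in controls and 6.81, 6.63 and 6.67 in SIRT3KO livers. The diets overlapped in controls and not in SIRT3KO mice. Mvd fell by 0.53 (SE 0.134, limma adjusted p = 0.0358) in SIRT3KO mice, and in controls the value was -0.30 (SE 0.134, limma adjusted p = 0.205). The control value was -0.18 without control standard-diet replicate 1 and -0.40 without control standard-diet replicate 2. The difference between genotypes in the response to diet was not called (interaction -0.23, 95% confidence interval -0.64 to 0.17, limma adjusted p = 0.945). In SIRT3KO mice the call was lost without SIRT3KO standard-diet replicates 1 (0.126) or 2 (0.0928), SIRT3KO high-fat replicates 2 (0.125) or 3 (0.0999), control standard-diet replicate 3 (0.0506) or control high-fat replicate 1 (0.0510), and with the SIRT3KO groups alone (0.0610).

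Idi1, the isomerase that converts isopentenyl to dimethylallyl diphosphate, had the widest range over the arrays of the 8 enzymes. Standard-diet controls were at 9.72, 9.44 and 9.37, and standard-diet SIRT3KO livers at 9.14, 7.92 and 9.49. High-fat values were 7.59, 8.46 and 7.05 in controls and 7.69, 7.24 and 7.42 in SIRT3KO livers. SIRT3KO standard-diet replicate 2 thus lay below 1 of the high-fat control arrays, and the diets did not overlap within either genotype. Idi1 was 3.50-fold lower in controls (-1.81, SE 0.349, limma adjusted p = 0.00948) and 2.64-fold lower in SIRT3KO mice (-1.40, SE 0.349, limma adjusted p = 0.0339). By size it was the 3rd lowest difference of all genes in controls. The call in controls held without any single array. That in SIRT3KO mice ended without SIRT3KO standard-diet replicates 1 (0.1001) or 3 (0.0815) or SIRT3KO high-fat replicates 2 (0.119) or 3 (0.0929). It also ended with robust moderation (0.111), with bright genes alone (0.0513) and with the SIRT3KO groups alone (0.0592). A further probe set listed with the same accessions gave -1.78 (SE 0.351) and -1.36 (SE 0.351). Its values followed the other over the 12 arrays (r = 0.999), so they are no independent readings.

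Fdps encodes farnesyl diphosphate synthase, the enzyme that condenses the isoprenoid units to the branch-point compound, and had the lowest adjusted p of the 8 between diets. It stood at 8.48, 7.99 and 8.25 in standard-diet controls and 8.67, 7.97 and 8.33 in standard-diet SIRT3KO livers. Under high-fat feeding it was at 6.81, 6.63 and 6.61 in controls and 6.65, 6.37 and 6.64 in SIRT3KO livers. More than 1 log2 unit separated the lowest standard-diet array from the highest high-fat array. Fdps was 2.94-fold lower in controls (-1.56, SE 0.162, limma adjusted p = 0.000201) and 3.41-fold lower in SIRT3KO mice (-1.77, SE 0.162, limma adjusted p = 5.99e-05). Fdps had the 8th lowest difference of all genes in controls and the 4th lowest in SIRT3KO mice. Leaving out single arrays kept it between -1.68 and -1.43 in controls and between -1.95 and -1.60 in SIRT3KO mice.

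The enzymes on either side of the farnesyl branch did not follow Fdps in the difference between diets. Ggps1, geranylgeranyl diphosphate synthase, was at 7.43, 7.33 and 7.57 in standard-diet controls and 7.04, 7.30 and 7.49 in standard-diet SIRT3KO livers. High-fat arrays gave 7.50, 7.81 and 7.23 in controls and 7.27, 7.47 and 7.66 in SIRT3KO livers. Its groups overlapped throughout. The diet differences were 0.07 (95% confidence interval -0.25 to 0.39) and 0.19 (-0.13 to 0.51) in controls and SIRT3KO mice, at limma adjusted p = 0.828 and 0.499. Without control high-fat replicate 2 the control value was -0.08. The SIRT3KO value was 0.07 without SIRT3KO standard-diet replicate 1, 0.09 without SIRT3KO high-fat replicate 3, and 0.30 and 0.29 without standard-diet replicate 3 and high-fat replicate 1. Both intervals lie above those of Fdps.

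Fdft1, squalene synthase, which makes the committed step to sterols, was at 10.33, 9.66 and 9.89 in standard-diet controls and 10.22, 9.66 and 10.14 in standard-diet SIRT3KO livers. High-fat arrays were at 9.88, 9.96 and 9.67 in controls and 9.83, 10.10 and 9.94 in SIRT3KO livers. The spread within the standard-diet groups was wider than the distance between the diets. The differences were -0.12 (95% confidence interval -0.47 to 0.23) in controls and -0.05 (-0.40 to 0.30) in SIRT3KO mice, at limma adjusted p = 0.715 and 0.894. The second Fdft1 probe set gave -0.17 (SE 0.138) and -0.23 (SE 0.138) and passed in neither genotype. Its values were 9.66, 9.13 and 9.35 in standard-diet controls and 9.74, 9.38 and 9.67 in standard-diet SIRT3KO livers, against 9.27, 9.31 and 9.06 in controls and 9.18, 9.50 and 9.41 in SIRT3KO livers on the high-fat diet. Both intervals of the brighter probe set lie above those of Fdps, which end at -1.21 in controls and -1.43 in SIRT3KO mice.

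**Figure D2:**
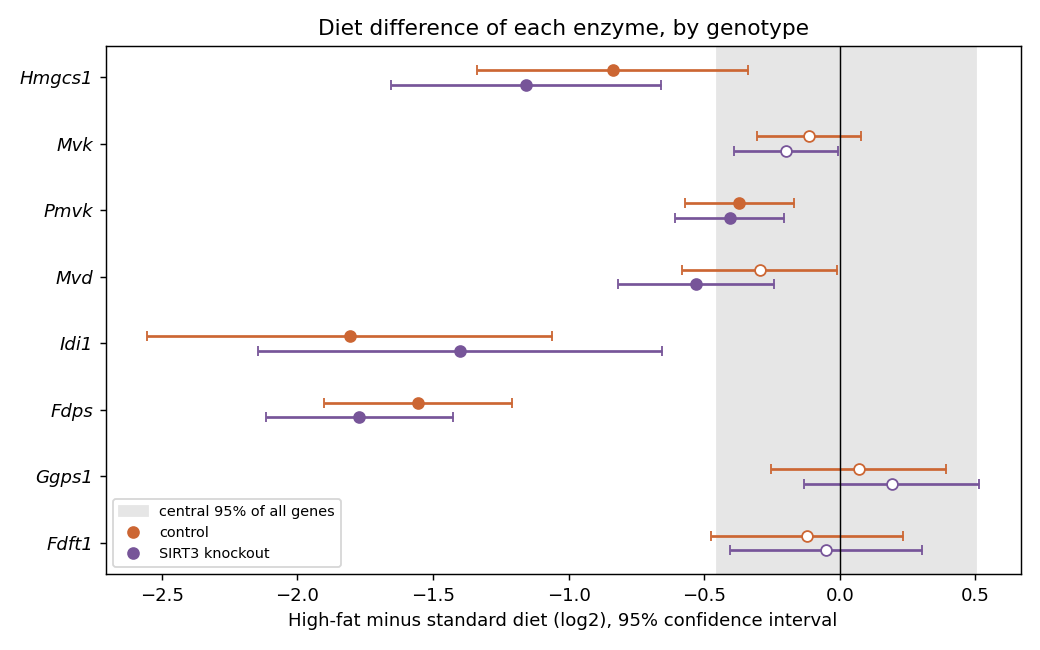
High-fat minus standard diet (log2, horizontal axis) for each enzyme in controls (orange) and SIRT3KO mice (purple), with 95% confidence intervals of the limma fit; filled points were called and open points were not. The central 95% of all genes ran from -0.38 to 0.50 in controls and from -0.45 to 0.45 in SIRT3KO mice. The grey band joins the lowest and highest of these limits, -0.45 and 0.50, and Hmgcs1, Idi1 and Fdps lie below it in both genotypes.

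In controls 4 of the 8 enzymes were called lower and 0 higher, where 5.99% of all genes were called, 1.69% lower and 4.3% higher. In SIRT3KO mice 5 were called lower and 0 higher, against 5.11% of all genes, 2.66% lower and 2.45% higher. Averaged over genotypes the same 5 were called lower, where 18% of all genes were called, 7.69% lower and 10.3% higher, and these 5 stayed called on leaving out each of the 12 arrays in turn. The median of the 8 was -0.33 in controls and -0.47 in SIRT3KO mice, beside medians over all genes of 0.04 and -0.01. Arrays of the diets did not overlap for the 4 called enzymes in controls and for the 5 in SIRT3KO mice, beside 10.9% and 13.2% of all genes with that pattern in the lower direction and 19.4% and 10.6% in the higher. The count in controls was 2 (Idi1 and Fdps) without control standard-diet replicate 1 or 3 or without any 1 of the control high-fat arrays. In SIRT3KO mice it was 2 (Hmgcs1 and Fdps) without SIRT3KO standard-diet replicate 1, the array high in acute-phase genes, or high-fat replicate 3. It was 3 without SIRT3KO standard-diet replicate 2 (Hmgcs1, Idi1 and Fdps) or high-fat replicate 2 (Hmgcs1, Pmvk and Fdps). The array means of the 6 endothelial markers, all measured, were 8.46 to 8.53 on the standard diet and 8.54 to 8.69 on the high-fat diet. They did not overlap between diets in either genotype. For 5 of 6 lymphocyte markers they were 5.24 to 5.29 and 5.44 to 5.63 in controls, without overlap, and 5.32 to 5.51 and 5.39 to 5.51 in SIRT3KO livers. For 7 of 7 stellate markers they were 7.39 to 7.51 and 7.59 to 7.72 in controls, also without overlap, and 7.32 to 7.59 and 7.43 to 7.60 in SIRT3KO livers. The means of 8 of 10 hepatocyte markers were lower on the high-fat diet in controls (13.28 to 13.43 and 13.19 to 13.28) and overlapped in SIRT3KO livers (13.24 to 13.45 and 13.17 to 13.28). Those of 8 of 8 macrophage markers (7.87 to 8.17 and 7.96 to 8.53) and of 6 of 7 bile duct markers (5.96 to 6.50 and 6.18 to 6.34) overlapped within each genotype. Fewer cells of a type and less RNA per cell cannot be told apart in whole liver, and the part of these shifts in the results was not tested.

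Between the genotypes no enzyme was called. On the standard diet the differences of SIRT3KO minus control ran from -0.66 for Idi1 to 0.26 for Mvd, with a median of 0.05 beside 0.04 over all genes. For Idi1 the 95% confidence interval was -1.40 to 0.09 (limma adjusted p = 0.549), and the value was -0.19 without SIRT3KO standard-diet replicate 2. For Mvd it was -0.03 to 0.54 (limma adjusted p = 0.542), with values of 0.15 to 0.37 on leaving out single arrays. Hmgcs1 was at 0.21 (-0.29 to 0.71) and at 0.01 without SIRT3KO standard-diet replicate 1 or -0.02 without control standard-diet replicate 2, and Fdps at 0.08 (-0.26 to 0.43) and at -0.09 and -0.05 without the same arrays. On the high-fat diet the range was -0.25 for Idi1 to 0.12 for Fdft1, with a median of -0.05 beside -0.02 over all genes. Arrays of the genotypes overlapped for all 8 enzymes on both diets. On the standard diet 4.52% of all genes were lower without overlap and 9.88% higher, and on the high-fat diet 4.27% and 2.41%. None of the 8 was called, as against 0.00502% of all genes on the standard diet and 0% on the high-fat diet (limma). At an unadjusted p under 0.05 stood 0 of the 8 on either diet, beside 9.73% and 2.86% of all genes.

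The difference between the genotypes in their response to diet, tested as an interaction, was not called for any enzyme or any other gene (0% of 19938 by limma, with 4.73% at an unadjusted p under 0.05). The values were -0.32 (95% confidence interval -1.02 to 0.39) for Hmgcs1, -0.23 (-0.64 to 0.17) for Mvd and -0.22 (-0.70 to 0.27) for Fdps. Leaving out single arrays moved them over -0.54 to -0.09 for Hmgcs1, -0.35 to -0.13 for Mvd and -0.39 to -0.04 for Fdps, with the values nearest 0 reached without control standard-diet replicate 2 (Hmgcs1, Mvd) or SIRT3KO standard-diet replicate 1 (Fdps). For Idi1 the value was 0.41 with an interval of -0.65 to 1.46, the widest of the 8, and it was -0.06 without SIRT3KO standard-diet replicate 2 and 0.08 without control high-fat replicate 3. The intervals were narrowest for Mvk (-0.36 to 0.19) and Pmvk (-0.32 to 0.25). These intervals bound the difference and do not show that the genotypes respond alike.

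**Figure D3:**
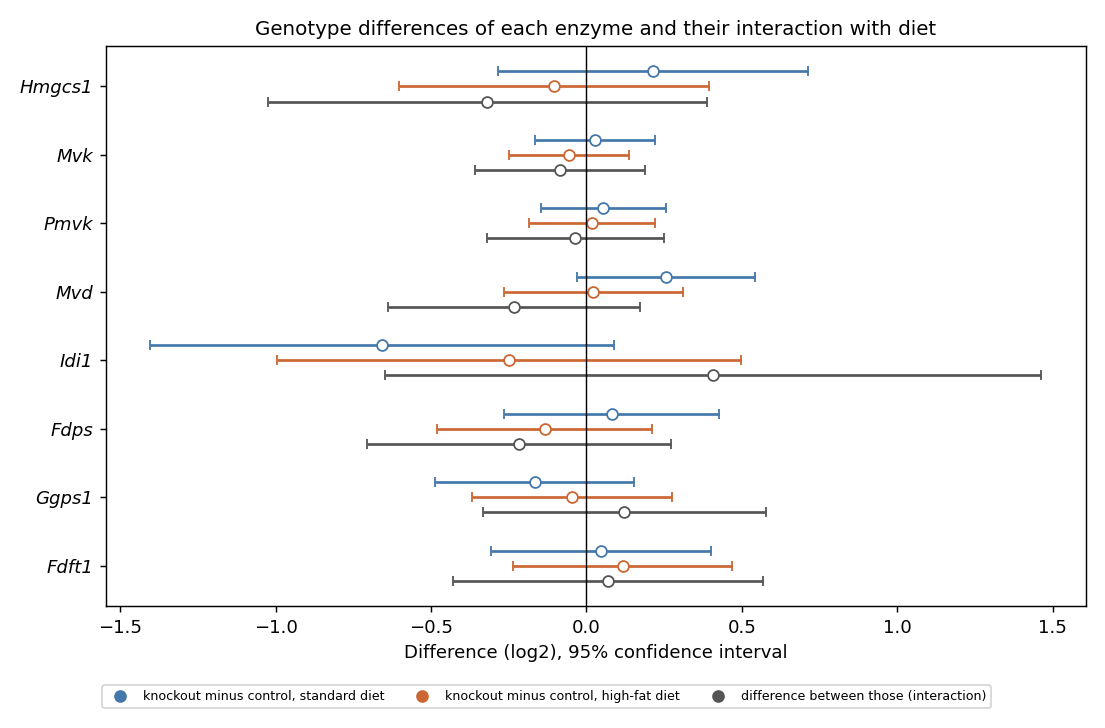
SIRT3KO minus control (log2, horizontal axis) on the standard diet (blue) and on the high-fat diet (orange), and the interaction (grey), for each enzyme with 95% confidence intervals of the limma fit. All points are open, since none was called, and every interval includes 0; the widest is that of Idi1 for the interaction, from -0.65 to 1.46.

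Arrays of 1 group differed from each other in several enzymes at once. In standard-diet controls, replicate 2 lay below the group mean for 8 of the 8 enzymes and replicate 1 above it for 7. In standard-diet SIRT3KO livers, replicate 2 lay above the mean for 1 and replicate 1 for 7. For Hmgcs1, Mvk, Fdps and Fdft1 the arrays numbered 1 were the highest and those numbered 2 the lowest of both standard-diet groups. On the high-fat diet, control replicate 3 was lowest of its group for Hmgcs1 (8.11), Idi1 (7.05), Fdps (6.61), Ggps1 (7.23) and Fdft1 (9.67) and highest for Mvk (7.79) and Mvd (6.89). High-fat SIRT3KO arrays stayed within 0.24 of the group mean for each enzyme. Fdft1, which was not called between diets, was the enzyme that within groups lay nearest to the rest: after each group mean was subtracted, its correlation over the 12 arrays with the mean of the other 7 was 0.93, followed by Hmgcs1 (0.89) and Fdps (0.72). Mvd (0.03) and Ggps1 (0.15) were at the other end. These are descriptions over arrays that share only 8 degrees of freedom and their normalization, with no test.

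**Figure D4:**
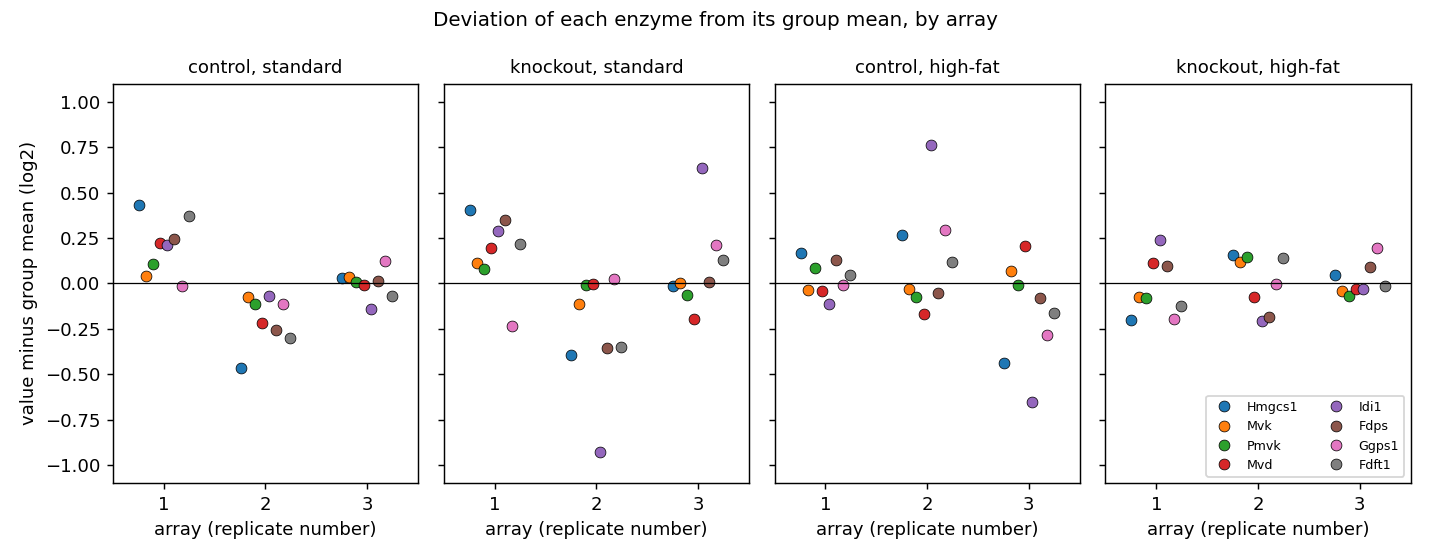
Value of each enzyme minus its group mean (log2, vertical axis) on each of the 3 arrays of the 4 groups; colours mark enzymes. Replicate 2 of the standard-diet controls has 0 of 8 points above 0, and Idi1 reaches -0.93 on replicate 2 of the standard-diet SIRT3KO group and 0.76 on replicate 2 of the high-fat controls.

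Most of the later enzymes of cholesterol synthesis were lower on the high-fat diet too. Of 11 measured genes that take squalene to cholesterol, 6 fell in controls, 8 in SIRT3KO mice and 9 on average over genotypes by limma, beside 1.69%, 2.66% and 7.69% of all genes. None of the 11 rose, beside 4.3%, 2.45% and 10.3% of all genes. In SIRT3KO mice the count of falls was 7 without SIRT3KO standard-diet replicate 1, and 6 to 9 over all single omissions. The list had been described in these data before, and its median was -0.95 in controls and -1.07 in SIRT3KO mice. Squalene epoxidase, Sqle, which acts on the product of Fdft1, was at -2.02 (SE 0.289, limma adjusted p = 0.00211) in controls and -2.11 (SE 0.289, limma adjusted p = 0.00148) in SIRT3KO mice. Fdft1 was thus not called, while Fdps and Sqle, the enzymes before and after it, were. Further along, Tm7sf2 (a sterol reductase), Nsdhl (a sterol dehydrogenase) and Dhcr7 (the reductase of a last step) averaged -1.35 (SE 0.0858), -1.13 (SE 0.114) and -1.01 (SE 0.0718). With the variance for an offset between diets, 1 of the 11 was called on average over genotypes, which was Sqle (adjusted p = 0.0137). The list of other early enzymes held 2 measured genes of 6, and neither passed: Acat1, a mitochondrial thiolase, averaged -0.03 and Idi2, another isomerase, 0.30 (limma adjusted p = 0.742 and 0.103). The mean signal of Idi2 was only 4.55, at percentile 9.06 of all genes, so its difference says little.

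Among sterol sensors and SREBP targets outside synthesis, 7 of 11 measured genes were called lower on average over genotypes and 2 higher, beside 7.69% and 10.3% of all genes. The SREBP2 gene Srebf2 stood at 8.77, 8.53 and 8.74 in standard-diet controls, and at 8.01, 8.22 and 8.20 in high-fat controls. Standard-diet SIRT3KO values were 8.94, 8.69 and 8.85, and high-fat ones 8.11, 8.24 and 8.18, with no overlap between diets. The difference was -0.54 (SE 0.0979) in controls and -0.65 (SE 0.0979) in SIRT3KO mice, at limma adjusted p = 0.00694 and 0.00294. Insig1, which holds SREBP in the endoplasmic reticulum and is itself a target, averaged -0.94 (SE 0.129), and Stard4, a carrier of sterols, -0.72 (SE 0.0971). Srebf1, the gene of the SREBP that drives fatty acid synthesis, went the other way, by 1.27 (SE 0.140) in controls and 1.18 (SE 0.140) in SIRT3KO mice (limma adjusted p = 0.000274 and 0.000609). In controls, 4 of the 11 were called lower, beside 1.69% of all genes. That count was 1 without control high-fat replicate 1 and 2 without control standard-diet replicate 1, while the averaged count lay between 6 and 7 without any single array. The averaged rises were Srebf1 and Mylip (0.27, SE 0.0804), a ligase that acts on lipoprotein receptors and is named because it completes the count. Their count was 1 without replicate 1 or 2 of either standard-diet group or replicate 2 of either high-fat group, and 3 without control high-fat replicate 3 or SIRT3KO high-fat replicate 1. With the variance for an offset between diets 0 of the 11 were called.

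Of 15 measured genes that use isoprenoids, for prenylation, dolichol, ubiquinone, heme A and tRNA modification, 1 was called lower on average over genotypes and 1 higher, shares near the 7.69% and 10.3% of all genes. Fnta, the shared alpha subunit of farnesyl and geranylgeranyl transferase, averaged -0.22 (SE 0.0573, limma adjusted p = 0.0161), and Trit1, which prenylates tRNA, 0.22 (SE 0.0708, limma adjusted p = 0.0414). Without single arrays the count of rises was 2 without SIRT3KO high-fat replicate 1 and 0 without any other, and that of falls stayed at 1. With the variance for an offset between diets 0 of the 15 were called.

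**Figure D5:**
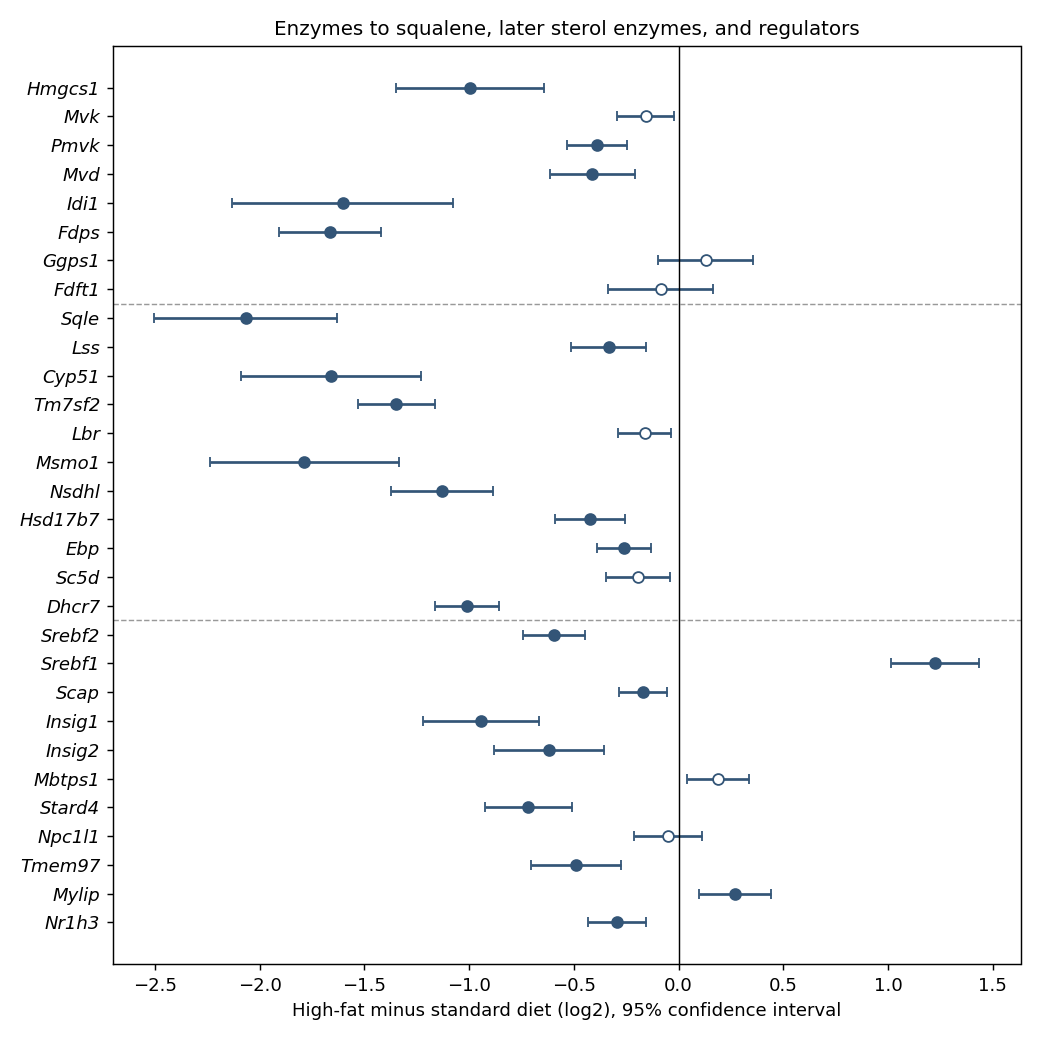
High-fat minus standard diet averaged over genotypes (log2, horizontal axis) with 95% confidence intervals, filled where called by limma. From the top, the 8 enzymes to squalene, 11 later enzymes of cholesterol synthesis, and the 11 measured sterol sensors and targets, parted by dashed lines. Fdps (-1.66) and Sqle (-2.07) lie far to the left of Fdft1 (-0.09), which is drawn between them, and Srebf1 (1.22) lies to the right.

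By the rule for likeness, the genes outside these lists nearest to the mean of the 8 enzymes over the 12 arrays were Rdh11 (a retinol dehydrogenase, r = 0.97), Aldh8a1 (0.95), Commd5 (0.94), Krtap6-2 (0.94) and Apom (0.94). The split between diets enters these values: Rdh11 differed by -0.61 in controls and -0.65 in SIRT3KO mice. After the group means were subtracted, the nearest were Ctsh (0.95), Prelid2 (0.93), Zfp40 (0.91), Pxdc1 (0.91) and Airn (0.90), none of which is among the first 5.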

How the data were processed

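Liver RNA on 12 Affymetrix arrays was read from the series' value table. The deposited values are log2 signals that came from Expression Console with RMA, per the submitters' processing notes; versions are not given in the sources used here. GEO's platform annotation named 1 gene for 21789 of 35557 probe sets, several for 1621 (left out) and none listed for 12147. Where several probe sets named 1 gene (999 genes), the brightest stood for it, which left 19938 genes.

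The model in limma 3.58.1 (R 4.3.3) had a mean for each group over the 12 arrays (moderation with an intensity trend, 8 residual degrees of freedom), with Benjamini-Hochberg adjustment over all genes. The fit was tested on simulated data. The number of arrays limits the precision. Named were the 8 enzymes, Sirt3, up to 4 genes of each pathway list by averaged p, and the 5 genes closest in pattern by each of 2 measures. The enzymes and lists were chosen with earlier results of these data known. Alternatives were the moderation, array weights, a replicate block, quantile, loess or median normalization, bright genes only, all probe sets, only the groups compared, a variance for an offset between diets, other thresholds, and leaving out each array. Promoters were searched with Python 3.11.15 and figures drawn with matplotlib 3.10.9. Same-numbered arrays of different groups correlated at -0.27 to 0.41 in their deviations, so the numbers were not taken as pairs.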

Additional observations from a re-analysis of the deposited data

How the results depend on the processing

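The counts of enzymes called by limma moved with the diet settings. With a variance for an offset between diets, 0 were called in controls, 1 in SIRT3KO mice and 1 on average, as were 7, 5 and 9 of all 19938 genes. At an adjusted p under 0.01 the counts were 2 in controls and 1 in SIRT3KO mice (274 and 232 of all genes), and with only the groups compared it was 2 in SIRT3KO mice (381 of all genes). Leaving out single arrays gave 2 to 4 in controls and 2 to 5 in SIRT3KO mice. With the replicate number as a block the counts were 4, 5 and 5, and 0 for genotype and interaction, as without it. Same-numbered arrays had a median correlation of 0.05 in 18 pairs, 5 of them over 0.1, and 7 of 12 arrays correlated best with their own number.

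Signs that turned belong to differences that were not called. Median centring gave -0.0110 for the difference of Ggps1, diet in control. For the genotype on the standard diet it gave -0.0520 (difference of Mvk, genotype on standard diet), -0.0257 (difference of Pmvk, genotype on standard diet) and -0.0325 (difference of Fdft1, genotype on standard diet), and 0.00878 and 0.0578 for the difference of Mvk, interaction, and the difference of Pmvk, interaction. Array weights gave 0.00019 for the difference of Fdft1, diet in knockout, and 0.00967 for the difference of Mvk, genotype on high-fat diet. The cause was not tested. Single omissions turned the sign within these ranges. For diet in control they were -0.0782 to 0.21 (Ggps1) and -0.27 to 0.0641 (Fdft1), and for Fdft1 -0.23 to 0.0576 in SIRT3KO mice and -0.17 to 0.0064 on average. On the standard diet the genotype ranges were -0.0191 to 0.43 (Hmgcs1), -0.0283 to 0.0855 (Mvk), -0.0038 to 0.11 (Pmvk), -0.0945 to 0.26 (Fdps) and -0.10 to 0.23 (Fdft1). On the high-fat diet they were -0.32 to 0.0283 (Hmgcs1), -0.0544 to 0.0595 (Pmvk), -0.0611 to 0.13 (Mvd), -0.58 to 0.13 (Idi1) and -0.19 to 0.10 (Ggps1). For the interaction they were -0.11 to 0.0218 (Pmvk), -0.0555 to 0.79 (Idi1), -0.0202 to 0.27 (Ggps1) and -0.12 to 0.22 (Fdft1). Of 1064 differences of single enzymes under the alternatives, 973 kept their direction and side of the threshold, 50 were no longer called and 41 changed sign. Settings of the moderation leave a difference itself unchanged, as does leaving out an array outside the groups compared. Its direction could not change under these, so the share that kept it is no measure of robustness.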
